A study of Homo sapiens with 6 samples.

Results

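The collagen genes were followed in PC-3 tumors from mice given Vehicle or WCE, an herbal extract of *Wedelia chinensis*. PC-3 is a human cell line from androgen-independent prostate cancer, and the tumors grew as xenografts in nude mice, which lack mature T cells. The RNA of 3 Vehicle tumors and 3 WCE tumors was sequenced, with no agent other than WCE separating the groups. The study's methods describe luciferase-carrying cells implanted into the prostate of male mice, and WCE given by gavage. The labels give a treatment of 10 weeks, whereas the text of the study describes other durations, and the weeks behind these tumors were not settled here. The labels give neither a dose nor the age of the mice. The text of the study gives an age, and doses of WCE that differ between its sections. The dose behind these tumors was not settled here. Every tumor comes from the same cell line, and the labels describe the samples as individual tumors. Members were all entries of the expression table with a symbol of the form COL, digits, A, digits, also where the symbol shares an entry with another gene. This gave 49 of 24000 entries for 43 collagen symbols, because COL11A2 has 6 further copies on alternative haplotypes of chromosome 6, all listed at 0 in every tumor. COL3A1, COL7A1 and COL17A1 are listed jointly with the microRNA genes MIR3606, MIR711 and MIR936, so that their values cannot be separated from those of the microRNA. The tested entries of COL3A1, COL5A2, COL8A1, COL18A1 and COL27A1 also overlap the locus of another entry (MIR1245A, MIR3129, FILIP1L, COL18A1-AS1 and MIR455 among them). COL26A1 was not listed under that symbol.

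Collagens are secreted proteins with a triple helix wound from chains that share a repeated glycine pattern. Fibrillar collagens form the cables of connective tissue, type IV collagens form the sheet of the basement membrane, and type VI collagen forms beaded filaments between these kinds of matrix. Collagens associated with fibrils (FACIT), transmembrane collagens, multiplexins and the anchoring fibril collagen link these networks to each other and to cells. In most solid tumors fibroblasts make the bulk of the fibrillar collagen, while epithelial cells contribute basement membrane chains. Every chain is hydroxylated, glycosylated and chaperoned in the endoplasmic reticulum before export, and many are trimmed and cross-linked outside the cell.

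Levels are given as FPKM, the number of sequenced fragments scaled to the length of the gene and to all mapped fragments of the tumor, a unit that allows levels to be set side by side between genes. Differences are given as the log2 fold change of FPKM + 1, WCE minus Vehicle, with its standard error (SE), which understates the change of genes with low values. Of the 43 symbols, 24 had an entry with a mean of at least 0.5 FPKM over the 6 tumors and were tested, and the other 19 were not. The depth of each tumor is unknown beyond the steps of its low values, which gave a relative depth of 25% for WCE replicate 1, 100% for Vehicle replicate 3 and 64.8% to 85.2% for the other 4 tumors. Vehicle replicate 3 and WCE replicate 1 were nearly the same library. Their median absolute log2 difference over entries of at least 50 FPKM was 0.03, where the remaining 14 pairings of tumors gave 0.10 to 0.25, and 0 entries were above 0 in WCE replicate 1 and at 0 in Vehicle replicate 3. Over the tested collagens the largest log2 difference between these 2 tumors was 0.17, at COL2A1. They are counted once in each group, as labeled, and the counts and the genes with the largest differences are also given for the remaining 2 Vehicle and 2 WCE tumors (the comparison of 2 against 2).

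Among the collagen entries the highest levels were those of type VI collagen. Its chains COL6A1 and COL6A2 together made up 64.4% to 80.2% of the summed collagen FPKM of a tumor, and COL6A2 ranked 162nd and COL6A1 219th among all 24000 entries by mean FPKM. COL4A5, a basement membrane chain, followed at rank 1834 with a mean of 51.9 FPKM, then COL13A1 at 41.4 FPKM and COL1A1 at 35.7 FPKM. The fibrillar class, which dominates connective tissue, held 3.74% to 10.2% of the collagen sum, and the basement membrane class 6.35% to 13.3%. How reads of host cells were treated is not given in the sources used here. The shares therefore describe the entries and not all collagen of the tumors.

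**Figure D1:**
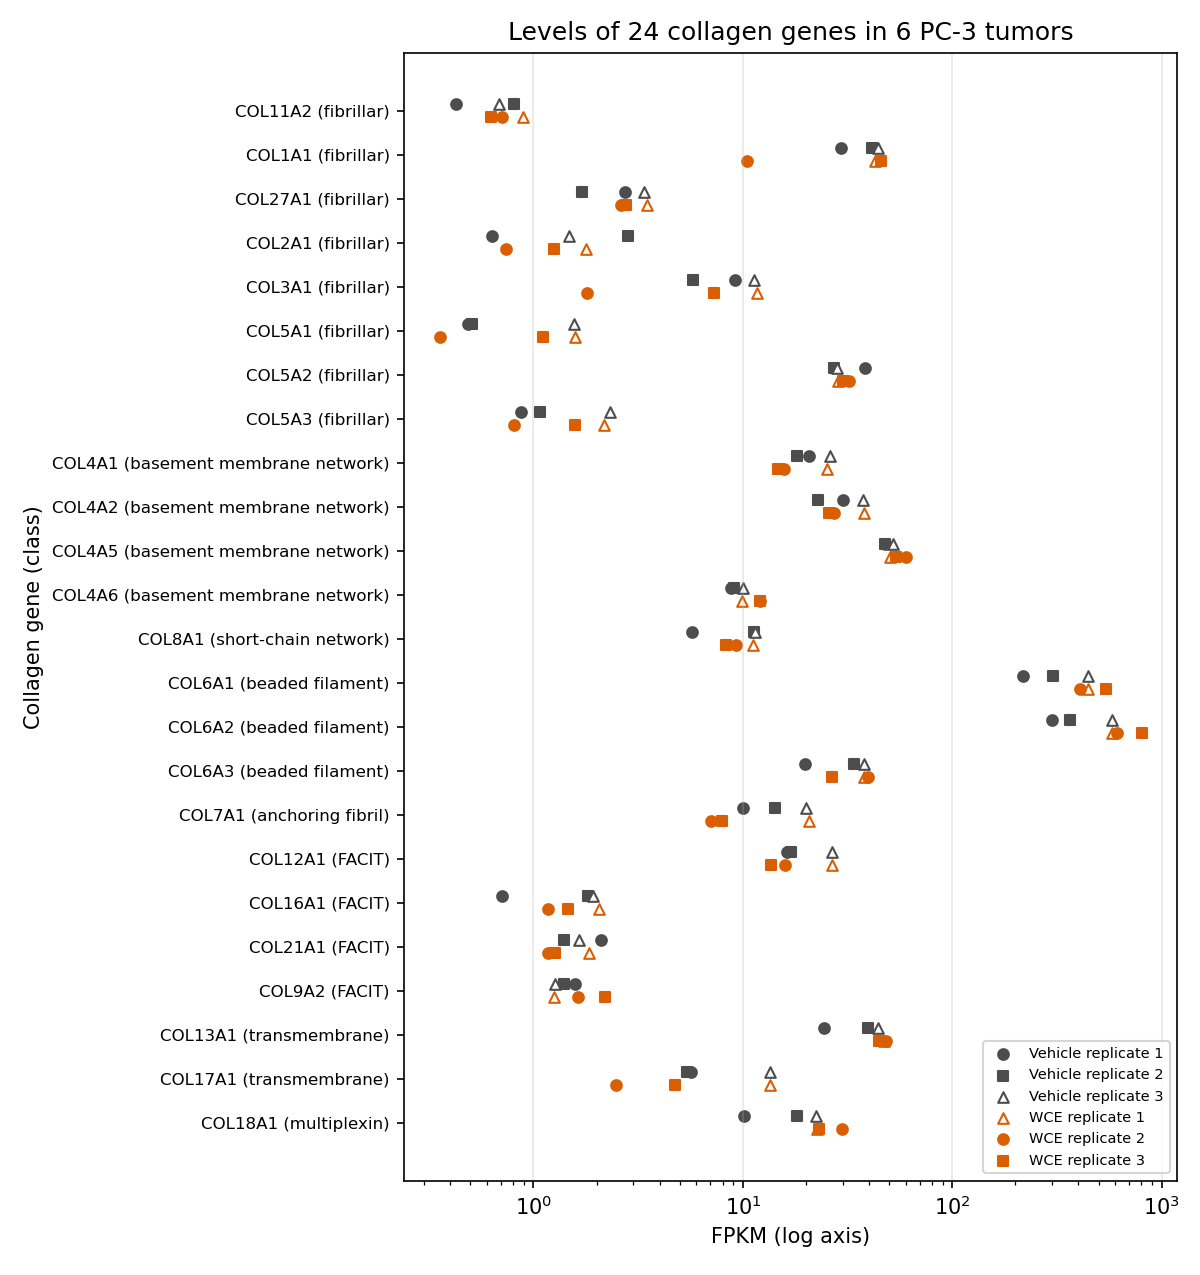
FPKM (log axis) of the 24 tested collagen genes in each of the 6 tumors, by class. Gray symbols are Vehicle tumors and orange symbols WCE tumors, with open triangles for the nearly identical Vehicle replicate 3 and WCE replicate 1. COL6A1 and COL6A2 lie between 218 and 803 FPKM, above every other collagen in every tumor, and COL1A1, COL3A1 and COL17A1 have their lowest value in WCE replicate 2.

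None of the 24 tested collagens passed the test after adjustment over all 13287 tested entries. The lowest adjusted p of a collagen was 0.623 (limma, two-sided, Benjamini-Hochberg), and 1 entry of the whole table, or 0.00753%, passed. At an unadjusted p under 0.05, 4 collagens were higher in WCE tumors (COL6A2, COL6A1, COL18A1 and COL4A6) and 0 were lower, where 3.78% of all tested entries were higher and 3.33% lower. That is 16.7% of the collagens on the higher side. This count was 0 when Vehicle replicate 1, Vehicle replicate 2 or WCE replicate 3 was left out. It was 2 without WCE replicate 1, 1 without WCE replicate 2 and 5 without Vehicle replicate 3. The whole table moved as well. Entries under that p in either direction numbered 944 over all 6 tumors. In the fits just named, in that order, they numbered 423, 347, 219, 2033, 235 and 1771. The 2 groups did not overlap for 3 collagens, COL6A2, COL13A1 and COL18A1, all higher in WCE, or 12.5% of those tested, against 6.37% of all entries higher and 6.40% lower. In all, 15 collagens had a higher and 9 a lower mean log2 value in WCE tumors. The median log2 fold change was 0.07 over the collagens and -0.01 over all tested entries, and the median absolute log2 fold change 0.17 against 0.13. An exact permutation test of a single gene over 3 against 3 tumors cannot give a two-sided p below 0.1.

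In the comparison of 2 against 2 tumors, 4 collagens were higher at an unadjusted p under 0.05 (COL6A2, COL6A1, COL18A1 and COL4A6) and 2 were lower (COL4A1 and COL7A1). The shares of all tested entries were 8.84% higher and 9.59% lower in that comparison. The lowest adjusted p of a collagen was then 0.173, so that none passed either.

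**Figure D2:**
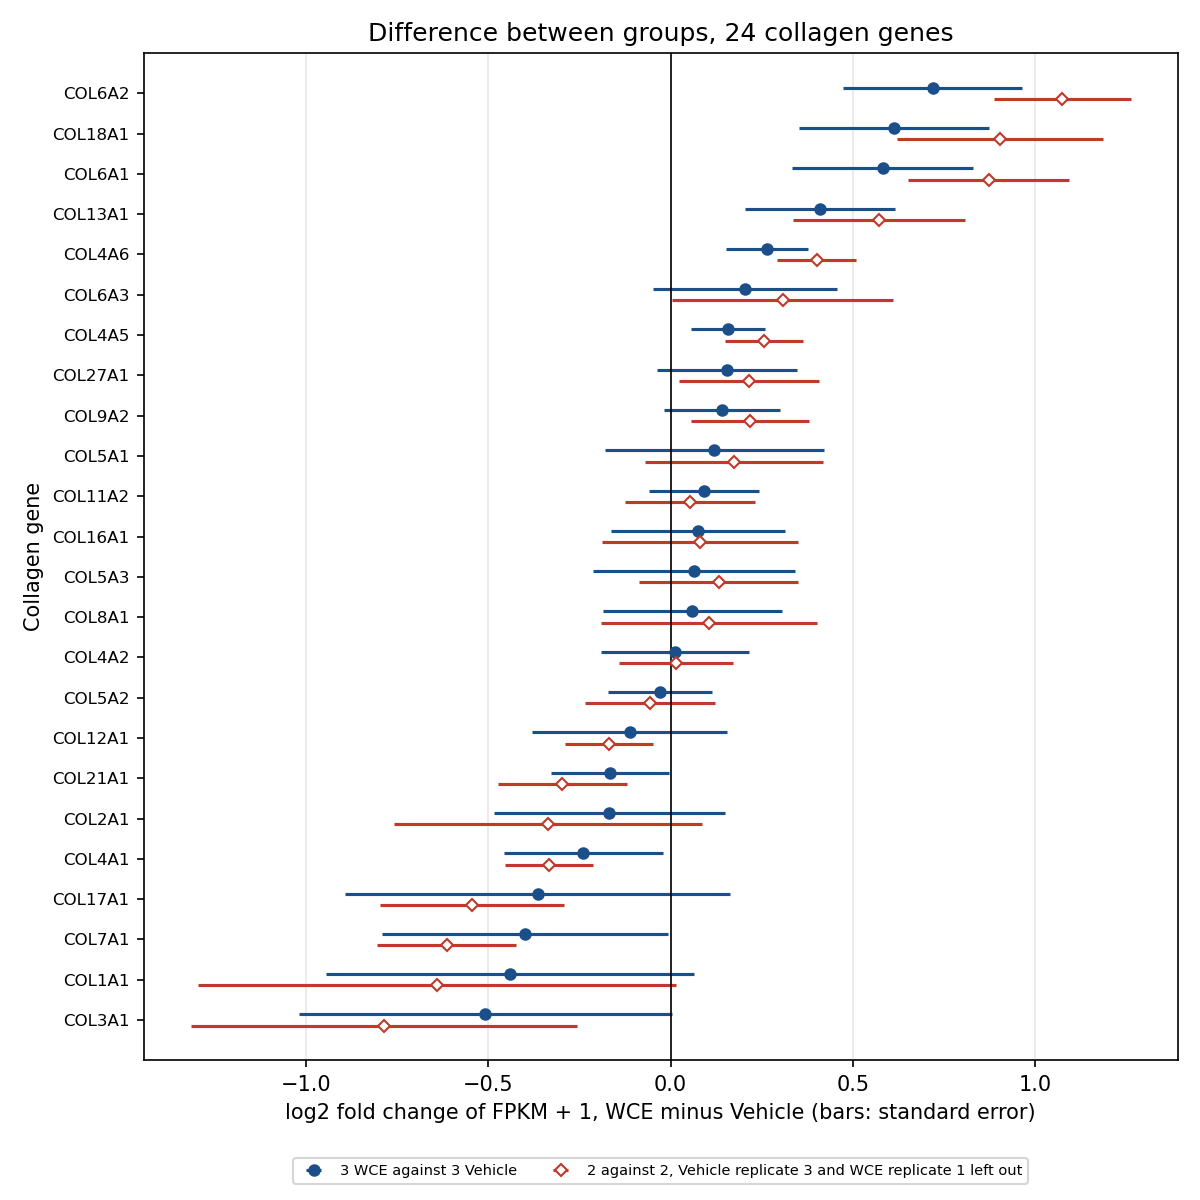
Log2 fold change of FPKM + 1, WCE minus Vehicle, with its standard error for the 24 tested collagens, ordered by the value over all 6 tumors. Filled circles use 3 tumors against 3 and open diamonds 2 against 2, without Vehicle replicate 3 and WCE replicate 1. COL6A2 has the highest value in both comparisons (0.72 and 1.07) and COL3A1 the lowest (-0.51 and -0.79).

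Type VI collagen is a filament of chains from COL6A1, COL6A2 and a further chain, most often from COL6A3, and it is made by many cells, with fibroblasts as its main source in most tissues. COL6A1 (chr21:47401663-47424963 in the loci of the table, whose haplotype names are those of hg19) and COL6A2 (chr21:47518033-47552763) are neighbors on chromosome 21. COL6A2 stood at 301, 366 and 578 FPKM in the Vehicle tumors and at 581, 609 and 803 FPKM in the WCE tumors. The groups did not overlap, but the highest Vehicle tumor and the lowest WCE tumor, which are the nearly identical libraries, were almost level. The mean was 415 ± 145 FPKM in Vehicle and 664 ± 121 FPKM in WCE tumors (SD, n = 3 each). On the log2 scale the difference was 0.72 (SE 0.25, adjusted p = 0.623). Without that pair of tumors the log2 fold change was 1.07 (SE 0.19, adjusted p = 0.173).

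COL6A1 was likewise lowest in Vehicle replicate 1 and highest in WCE replicate 3. Its levels were 218, 302 and 444 FPKM with Vehicle and 443, 408 and 543 FPKM with WCE. Vehicle replicate 3 lay above 2 of the WCE tumors. The log2 fold change was 0.58 (SE 0.25, adjusted p = 0.623) and 0.87 in the comparison of 2 against 2 (SE 0.22, adjusted p = 0.195). COL6A3, the long chain needed to complete the trimer, was far lower at 19.9, 33.9 and 37.9 FPKM with Vehicle and 37.7, 39.4 and 26.6 FPKM with WCE. The groups overlapped, and the log2 fold change was 0.20 (SE 0.25, adjusted p = 0.799), and 0.31 in the comparison of 2 against 2 (SE 0.30, adjusted p = 0.611).

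Set side by side per length, COL6A1 was 0.670 to 0.826 times COL6A2, while COL6A3 was 0.0489 to 0.112 times COL6A1. The COL6A3 share was lowest in WCE replicate 3, the tumor with the highest COL6A1 and COL6A2. COL6A5 and COL6A6, which can replace COL6A3 in the trimer, did not exceed 0.0209 FPKM in any tumor. The sum of all collagens ran from 806 to 1422 FPKM in the Vehicle tumors and from 1339 to 1679 FPKM in the WCE tumors. Without COL6A1 and COL6A2 the ranges were 287 to 401 FPKM and 323 to 403 FPKM.

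The bases before the start of COL6A2 are shown because this gene had the largest difference among the collagens. The 250 bases come from RefSeq on GRCh38.p14, a later build than that of the loci above (chr21:46097862-46098111, plus strand), and are 79.6% G or C. Capitals mark TATAAA, the core promoter box, which begins 32 bases before the annotated start.
COL6A2: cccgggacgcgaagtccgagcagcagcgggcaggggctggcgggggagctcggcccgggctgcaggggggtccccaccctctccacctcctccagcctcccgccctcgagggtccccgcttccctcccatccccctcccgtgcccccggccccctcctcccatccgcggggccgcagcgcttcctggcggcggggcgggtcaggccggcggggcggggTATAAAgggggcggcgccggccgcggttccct

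Type IV collagen forms the basement membrane that underlies epithelium and vessels. Its genes lie head to head in pairs, COL4A1 with COL4A2 on chromosome 13 and COL4A6 with COL4A5 on chromosome X, each pair sharing the stretch between its start sites, and the chains of a pair are built into networks together. The DNA of these shared stretches is shown for the pairs whose members were tested (RefSeq, GRCh38.p14, plus strand). Capitals mark CCAAT or, on the other strand, ATTGG. The first sequence is the whole 126 bases between the starts of COL4A1 and COL4A2 (chr13:110307158-110307283, 80.2% G or C). The other is the 121 bases common to the upstream windows of COL4A6 and COL4A5 (chrX:108439588-108439708, 44.6% G or C), out of 379 bases between the start of COL4A5 and the nearer of the annotated starts of COL4A6.
COL4A1 and COL4A2: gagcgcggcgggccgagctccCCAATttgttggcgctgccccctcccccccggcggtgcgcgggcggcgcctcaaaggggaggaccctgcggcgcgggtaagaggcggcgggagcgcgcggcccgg
COL4A6 and COL4A5: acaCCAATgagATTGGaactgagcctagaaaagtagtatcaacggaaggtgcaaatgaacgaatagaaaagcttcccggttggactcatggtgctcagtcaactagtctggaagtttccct

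COL4A5 was the most even collagen among the tumors, at 47.6, 47.5 and 51.9 FPKM with Vehicle and 50.5, 60.0 and 54.1 FPKM with WCE. Its partner COL4A6 (chrX:107398837-107682704 in the loci of the table) stood at 8.81, 9.04 and 9.97 FPKM with Vehicle and 9.94, 12.1 and 12.1 FPKM with WCE. For COL4A6 the groups overlapped only through Vehicle replicate 3 and WCE replicate 1, and the other WCE tumors were above every Vehicle tumor. The log2 fold change of COL4A6 was 0.27 (SE 0.11, adjusted p = 0.623), and 0.40 in the comparison of 2 against 2 (SE 0.11, adjusted p = 0.20). For COL4A5 it was 0.16 (SE 0.10, adjusted p = 0.647), and 0.26 in the comparison of 2 against 2 (SE 0.11, adjusted p = 0.287). The ratio of COL4A5 to COL4A6 was 5.21 to 5.40 in the Vehicle tumors and 4.48 to 5.08 in the WCE tumors, without overlap. The edges of that gap were the nearly identical libraries, Vehicle replicate 3 (5.21) and WCE replicate 1 (5.08).

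COL4A1 and COL4A2 encode the chains found in nearly every basement membrane. COL4A1 measured 20.8, 18.1 and 26.2 FPKM with Vehicle and 25.3, 15.7 and 14.6 FPKM with WCE. COL4A2 measured 30.2, 23.0 and 37.5 FPKM with Vehicle and 37.7, 27.4 and 25.8 FPKM with WCE. The groups overlapped for each gene, and both genes were highest in the nearly identical libraries. COL4A1 had a log2 fold change of -0.24 (SE 0.22, adjusted p = 0.727), and of -0.33 without those libraries (SE 0.12, adjusted p = 0.247). COL4A2 had one of 0.01 (SE 0.20, adjusted p = 0.988). The ratio of COL4A1 to COL4A2 within a tumor was 0.689 to 0.790 with Vehicle and 0.567 to 0.670 with WCE, again without overlap. Its edges were Vehicle replicate 1 (0.689) and WCE replicate 1 (0.670). For COL6A1 to COL6A2, COL6A3 to COL6A1 and COL5A1 to COL5A2 the ratios of the groups overlapped. The share of gene ratios without overlap among other genes was not counted. All these ratios are descriptions of 3 tumors each and were not tested. COL4A3 and COL4A4, the chains of kidney and lung basement membranes, stayed at or below 0.0716 FPKM.

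Fibrillar collagens gave 8 tested genes, of which 4 had a higher and 4 a lower mean log2 value in WCE tumors, and none reached an unadjusted p under 0.05. Type I collagen is normally built from the products of COL1A1 and COL1A2 together, but the entries of the table held COL1A1 without matching COL1A2. How reads of host cells were treated is not given in the sources used here, so this describes the table and not all type I collagen of the tumors. COL1A1 (chr17:48261457-48279000) stood at 29.5, 41.6 and 44.0 FPKM with Vehicle and at 42.8, 10.5 and 45.7 FPKM with WCE. WCE replicate 2 was far below the other 5 tumors, which lay between 29.5 and 45.7 FPKM. COL1A2 (chr7:94023873-94060544) was listed at 0.0809, 0.197 and 0.323 FPKM with Vehicle and 0.628, 0.0513 and 0.185 FPKM with WCE, too low to be tested. The log2 fold change of COL1A1 was -0.44 (SE 0.50, adjusted p = 0.781), and 0.22 without WCE replicate 2.

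COL3A1 (chr2:189839099-189877472), the chain of reticular fibers, was measured at 9.15, 5.81 and 11.3 FPKM with Vehicle and 11.7, 1.81 and 7.27 FPKM with WCE. Its log2 fold change was -0.51 (SE 0.51, adjusted p = 0.75), and 0.11 without WCE replicate 2, which again was the lowest tumor. COL5A2 lies next to COL3A1 on chromosome 2 and encodes a chain of type V collagen, which sets the width of fibrils. It was even across tumors, at 38.3, 27.4 and 28.0 FPKM with Vehicle and 28.5, 32.2 and 30.1 FPKM with WCE (log2 fold change -0.03, SE 0.14, adjusted p = 0.960). Its type V partner COL5A1 was lower by far, between 0.0111 and 0.0559 times COL5A2, and ranged from 0.356 to 1.59 FPKM.

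The remaining fibrillar genes were low. COL5A3, another type V chain, ranged from 0.805 to 2.32 FPKM, and COL27A1, a fibrillar collagen of cartilage, from 1.71 to 3.48 FPKM. COL2A1, the main cartilage collagen, ranged from 0.631 to 2.83 FPKM, and COL11A2, a chain of cartilage type XI collagen, from 0.428 to 0.893 FPKM. For all of them, and for COL5A1, the groups overlapped and the adjusted limma p was between 0.800 (COL27A1) and 0.955 (COL5A3). COL24A1 was measured at 0.115 to 0.344 FPKM and COL11A1 at no more than 0.0168 FPKM, both untested.

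COL7A1 (chr3:48601506-48632593) forms the anchoring fibrils that tie the basement membrane to the tissue beneath it. It stood at 10.0, 14.3 and 20.1 FPKM with Vehicle and at 20.6, 7.01 and 7.99 FPKM with WCE. WCE replicates 2 and 3 were below every Vehicle tumor, while WCE replicate 1 was the highest of all 6. Its log2 fold change was -0.40 (SE 0.39, adjusted p = 0.743), and -0.61 without the nearly identical libraries (SE 0.19, adjusted p = 0.216). COL17A1, a transmembrane collagen of the hemidesmosome by which epithelial cells hold the basement membrane, had a similar order of tumors. Its values were 5.65, 5.40 and 13.5 FPKM with Vehicle and 13.5, 2.49 and 4.73 FPKM with WCE, with a log2 fold change of -0.36 (SE 0.53, adjusted p = 0.832).

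The other transmembrane collagen above the filter, COL13A1 (chr10:71561644-71718904), is found at cell adhesion sites and at the neuromuscular junction. It measured 24.3, 39.6 and 44.3 FPKM with Vehicle and 47.1, 48.5 and 44.9 FPKM with WCE. All 3 WCE tumors were above all 3 Vehicle tumors, and the Vehicle tumors were the more spread, with 36.1 ± 10.5 FPKM against 46.8 ± 1.81 FPKM (SD, n = 3 each). The log2 fold change was 0.41 (SE 0.21, adjusted p = 0.623), and 0.57 in the comparison of 2 against 2 (SE 0.24, adjusted p = 0.285).

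COL18A1 (chr21:46825097-46933634), a multiplexin of basement membranes, is the source of the angiogenesis inhibitor endostatin. It stood at 10.1, 18.1 and 22.2 FPKM with Vehicle and 22.7, 29.7 and 23.2 FPKM with WCE. The groups did not overlap, with a margin of less than 1 FPKM between Vehicle replicate 3 and WCE replicate 1. Means were 16.8 ± 6.15 FPKM and 25.2 ± 3.90 FPKM (SD, n = 3 each). The log2 fold change was 0.61 (SE 0.26, adjusted p = 0.623), and 0.90 in the comparison of 2 against 2 (SE 0.28, adjusted p = 0.218). The gene overlaps its antisense partner COL18A1-AS1, and since the strand setting of the counting is not given in the sources used here, their reads cannot be told apart. COL15A1, the other multiplexin, did not exceed 0.0277 FPKM.

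**Figure D3:**
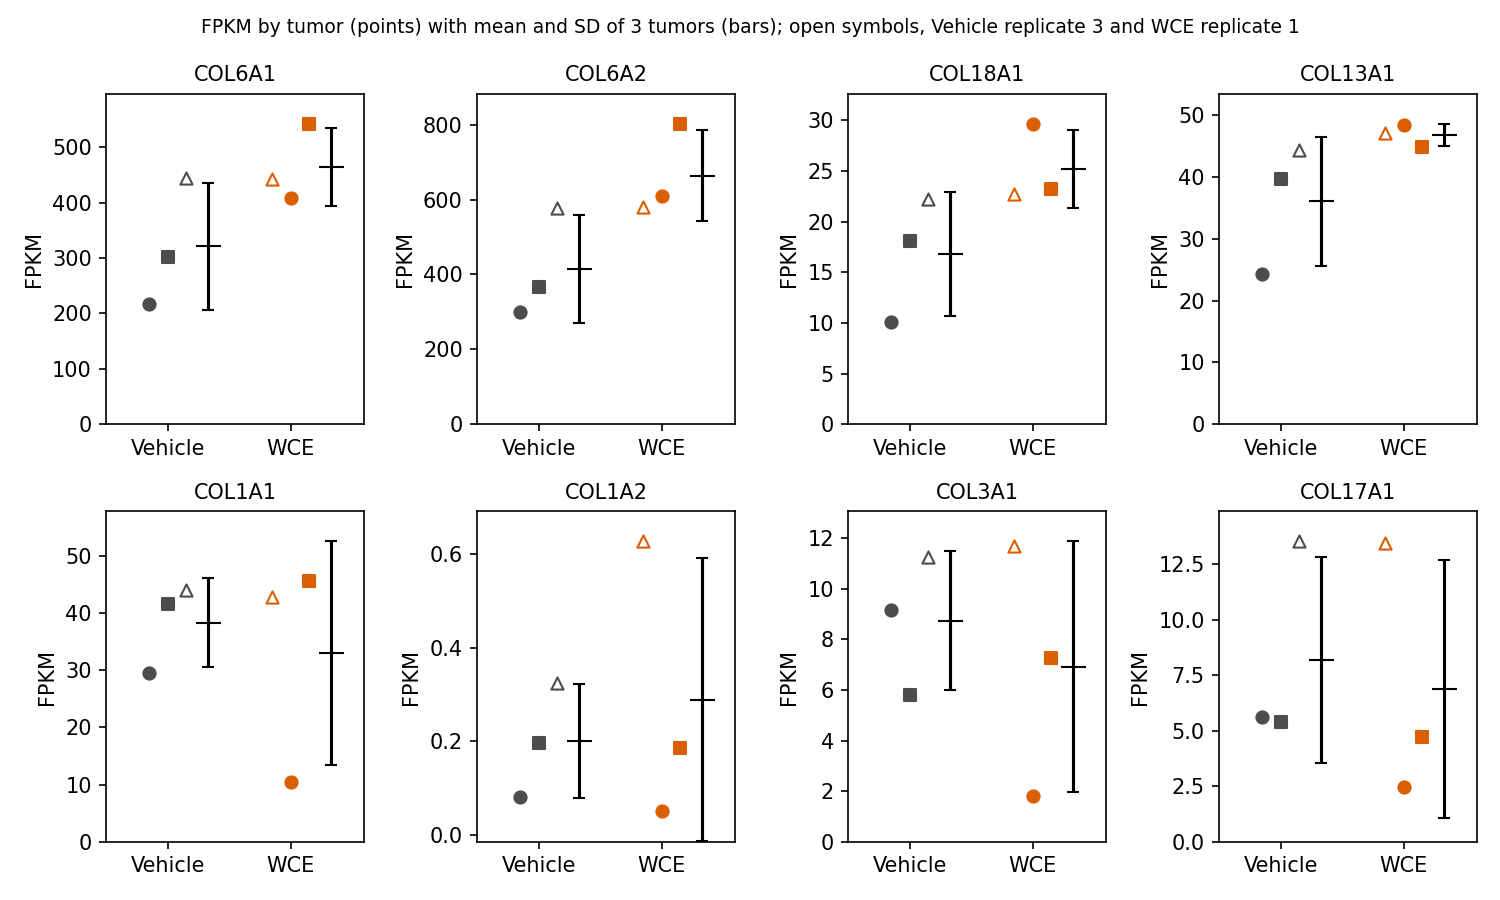
FPKM of 8 collagens in each tumor (points) with the mean and SD of the 3 tumors of a group (bars). Open triangles are Vehicle replicate 3 and WCE replicate 1. For COL6A2, COL18A1 and COL13A1 every WCE tumor is above every Vehicle tumor, COL1A2 stays at or below 0.628 FPKM where COL1A1 reaches 45.7 FPKM, and WCE replicate 2 is the lowest point for COL1A1, COL1A2, COL3A1 and COL17A1. The SD bar of COL1A2 in WCE tumors reaches below 0.

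FACIT collagens sit on the surface of fibrils, and 4 of 10 were tested, 2 of them with a higher and 2 with a lower mean log2 value in WCE tumors. COL12A1, which binds type I fibrils in tissue under load, was the most abundant of them. Its values were 16.3, 17.0 and 26.5 FPKM with Vehicle and 26.5, 15.8 and 13.7 FPKM with WCE, with a log2 fold change of -0.11 (SE 0.27, adjusted p = 0.907). COL16A1 ranged from 0.704 to 2.06 FPKM, COL21A1 from 1.17 to 2.09 FPKM and COL9A2, a cartilage chain, from 1.25 to 2.19 FPKM, and the adjusted limma p of each was at least 0.738. COL8A1, a short-chain collagen of vessel walls and of the endothelial membrane of the cornea, was the only tested member of its class. It ranged from 5.72 FPKM in Vehicle replicate 1 to 11.5 FPKM in Vehicle replicate 3, with the 3 WCE tumors inside that range (log2 fold change 0.06, SE 0.25, adjusted p = 0.953).

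Besides those already given, the untested collagens were COL8A2, COL9A1, COL9A3, COL10A1, COL14A1, COL19A1, COL20A1, COL22A1, COL23A1, COL25A1 and COL28A1. COL28A1 was the only entry of these with all 3 WCE tumors above all 3 Vehicle tumors. Its values were 0.128, 0.146 and 0.193 FPKM with Vehicle and 0.275, 0.501 and 0.447 FPKM with WCE. COL15A1, given above, went the other way near 0, at 0.0277, 0.0238 and 0.0269 FPKM with Vehicle and 0, 0 and 0.0112 FPKM with WCE. Both were named for this after their values were seen. The share of such entries among all those under the filter was not counted. COL9A3 reached 0.452 FPKM and COL8A2 0.333 FPKM.

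The tested collagens had a wider range between tumors than the tested entries as a whole, which were not matched to them for level. The ratio of the highest to the lowest of the 6 tumors had a median of 2.06 over the 24 collagens, against 1.44 over all tested entries above 0 in every tumor. It was largest for COL3A1 (6.47), COL17A1 (5.44), COL2A1 (4.49), COL5A1 (4.46) and COL1A1 (4.37). Of these, COL2A1 and COL5A1 fell to 0.631 and 0.356 FPKM, near the level of the filter. The ratio was smallest for COL4A5 (1.27), COL4A6 (1.38) and COL5A2 (1.40). Vehicle replicate 1 was the lowest tumor for 10 collagens and WCE replicate 2 for 7. Vehicle replicate 3 or WCE replicate 1 was the highest for 12 of 24. The share of all tested entries with these tumors lowest or highest was not counted, so these counts cannot be read as a trait of collagens.

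Motifs were counted in the RefSeq promoter windows of 250 bases before to 50 bases after a start (GRCh38.p14), on both strands. A gene was counted where any of its windows held the motif, for collagens as for all 27305 genes. Those genes had 35116 windows and were not filtered by level, unlike the collagens, so the shares compare unlike sets. Of the 24 tested collagens 18 had a window, 26 windows in all, and those without are COL1A1, COL2A1, COL3A1, COL5A2, COL6A1 and COL8A1. GGGCGG, the GC box, was in the windows of 14 of 18 collagens (77.8%, against 48.3% of all genes). CCAAT was in those of 7 (38.9%, against 39.7%), which include COL4A1, COL4A2, COL4A5 and COL4A6. TATAAA was found for 5 (27.8%, against 14%), COL6A2, COL7A1, COL13A1, COL17A1 and COL18A1. The NFκB consensus was found for COL6A2 and COL7A1 (11.1%, against 13.3%). A match is a stretch of letters and not a known binding site.

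Most genes for the steps that make a collagen chain into a fiber were above the filter. Of 32 genes for hydroxylation, glycosylation, folding, export, trimming and cross-linking, 27 were tested and 5 were under the filter (COLGALT2, MIA2, TLL2, ADAMTS2 and ADAMTS3). Among those tested 13 had a higher and 14 a lower mean log2 value in WCE tumors, with a median log2 fold change of -0.06. At an unadjusted p under 0.05, 2 were higher (P3H1 and LOX) and 0 were lower, that is 7.41% higher where 3.78% of all tested entries were higher and 3.33% lower, and none passed after adjustment (lowest adjusted p = 0.623). Dropping Vehicle replicate 1 alone, or either of WCE replicates 2 and 3 alone, gave a count of 0. It was 4 where Vehicle replicate 3 and 6 where WCE replicate 1 was dropped, with both directions counted together. Of all 13287 tested entries, 1771 and 2033 were under that p in those fits, and 219 to 423 in the fits with a count of 0. For 3 genes (P3H1, LOX and MIA3) every WCE tumor was above every Vehicle tumor, or 11.1% of those tested, against 6.37% of all entries. In the comparison of 2 against 2, 4 were higher (14.8%) and 5 lower (18.5%) at an unadjusted p under 0.05, against 8.84% and 9.59% of all entries. CTAGE5, which also names the export gene MIA2, has an entry of its own at 17.9 to 23.3 FPKM (log2 fold change -0.11, SE 0.11, adjusted p = 0.765) and is not counted among the 32.

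P3H1, listed under its older symbol LEPRE1, encodes a prolyl 3-hydroxylase of fibrillar chains. It measured 13.3, 16.2 and 17.5 FPKM with Vehicle and 18.3, 22.7 and 20.7 FPKM with WCE (log2 fold change 0.38, SE 0.13, adjusted p = 0.623, and 0.53 in the comparison of 2 against 2, SE 0.14, adjusted p = 0.196). LOX, the lysyl oxidase that starts cross-linking, was low at 0.947, 1.47 and 2.01 FPKM with Vehicle and 2.45, 2.13 and 2.22 FPKM with WCE (log2 fold change 0.42, SE 0.17, adjusted p = 0.623, and 0.54 in the comparison of 2 against 2, SE 0.17, adjusted p = 0.221). The groups did not overlap for either gene. P4HA1 and P4HA2, catalytic subunits of the prolyl 4-hydroxylase that stabilizes the helix, had log2 fold changes of -0.08 (SE 0.19, adjusted p = 0.911) and -0.09 (SE 0.24, adjusted p = 0.920), with levels of 94.8 to 149 FPKM and 16.8 to 33.3 FPKM.

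PLOD2, the lysyl hydroxylase that directs cross-links of fibrils, stood at 60.5, 52.3 and 65.5 FPKM with Vehicle and 65.7, 37.6 and 38.6 FPKM with WCE. WCE replicates 2 and 3 were below every Vehicle tumor, and WCE replicate 1 was the highest of the 6. Its log2 fold change was -0.36 (SE 0.21, adjusted p = 0.628), and -0.55 without the nearly identical libraries (SE 0.12, adjusted p = 0.179). SERPINH1, the chaperone that binds the folded collagen helix, measured 106, 62.2 and 71.4 FPKM with Vehicle and 75.4, 45.8 and 66.8 FPKM with WCE, with overlapping groups (log2 fold change -0.34, SE 0.24, adjusted p = 0.663).

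**Figure D4:**
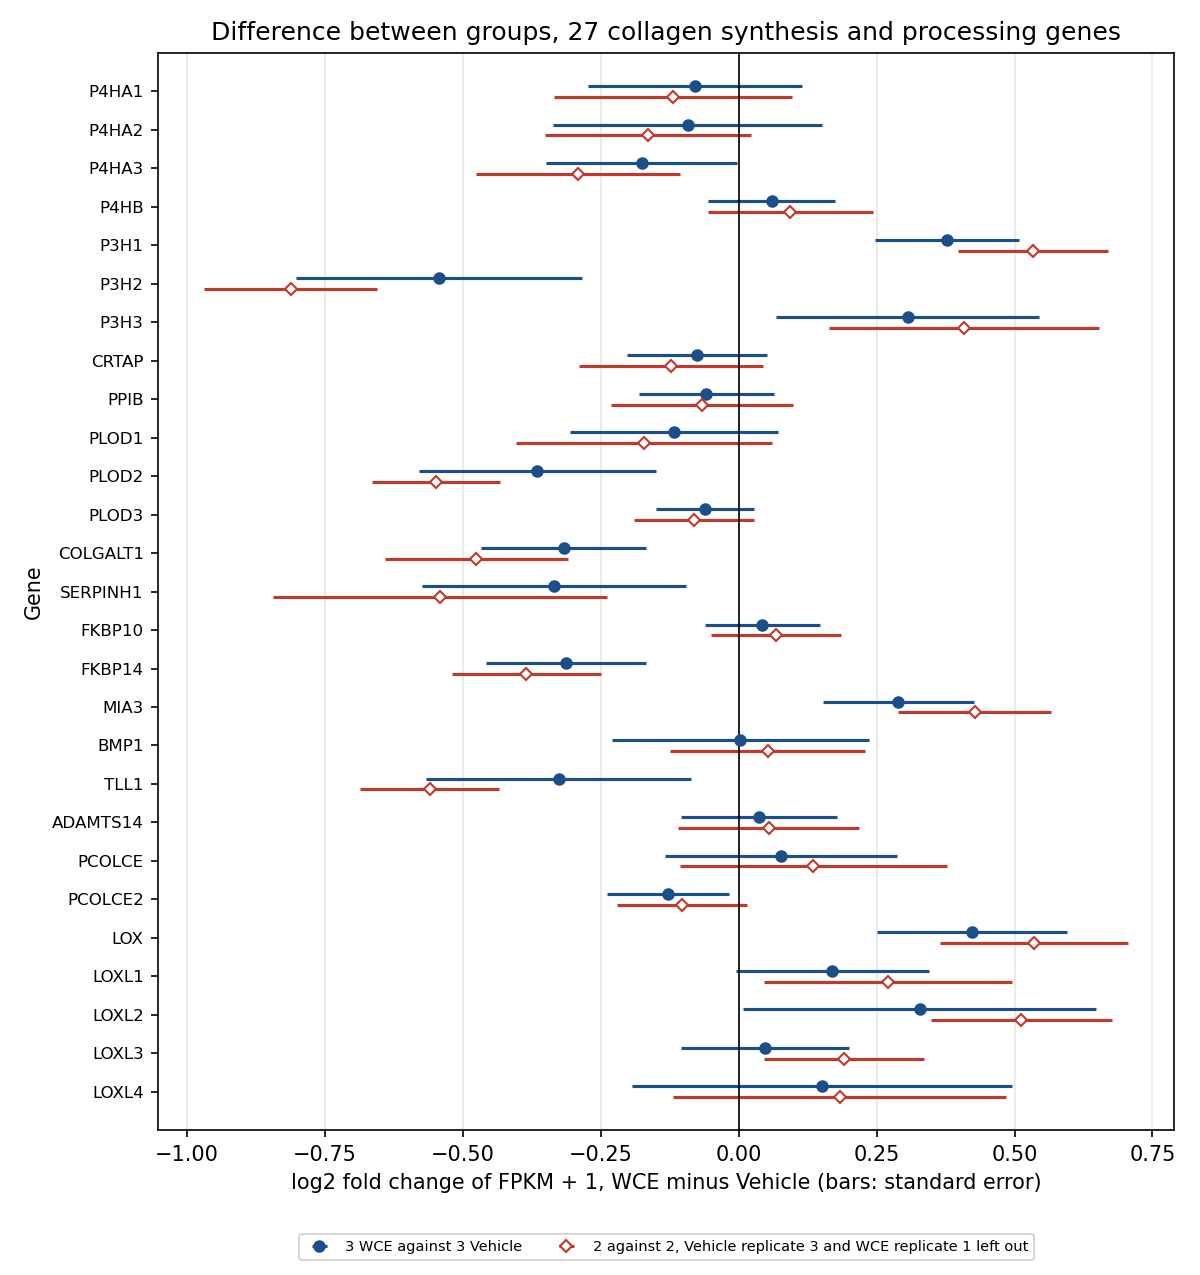
Log2 fold change of FPKM + 1, WCE minus Vehicle, with its standard error for the 27 tested genes of collagen synthesis and processing, in the order of the pathway from hydroxylation to cross-linking. Filled circles use 3 tumors against 3 and open diamonds 2 against 2. The highest value over all tumors is that of LOX (0.42) and the lowest that of P3H2 (-0.54), neither with an adjusted p under 0.05.

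Of 10 collagen receptors 6 were tested (DDR1, ITGA1, ITGA2, ITGA10, ITGB1 and MRC2) and 4 were under the filter (DDR2, ITGA11, GP6 and LAIR1). None of those tested had an unadjusted p under 0.05, and 4 had a higher and 2 a lower mean log2 value in WCE tumors. In the comparison of 2 against 2, 2 of the 6 were higher at an unadjusted p under 0.05 (33.3%, against 8.84% of all entries), ITGA1 with a log2 fold change of 0.38 (SE 0.11, adjusted p = 0.209) and ITGA10 with 0.78 (SE 0.25, adjusted p = 0.221). Both encode alpha subunits of collagen-binding integrins, and ITGA1 is listed jointly with PELO. Over all 6 tumors their log2 fold changes were 0.21 (SE 0.13, adjusted p = 0.641) and 0.54 (SE 0.39, adjusted p = 0.663). ITGB1, the subunit shared by the collagen-binding integrins, stood at 752 to 898 FPKM, and DDR1, a receptor tyrosine kinase for collagen, at 64.0 to 89.0 FPKM. ITGA2, whose product pairs with that of ITGB1 to bind collagen, was level at 30.9 to 36.0 FPKM (log2 fold change 0.00, SE 0.10, adjusted p = 0.992).

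Markers of the labeled cell type were present. KRT8 ranged from 192 to 253 FPKM and KRT18 from 241 to 322 FPKM, and KLK3 was at 0 in every tumor. Whether mouse reads were separated from human ones is not given in the sources used here, and reads of host cells may be counted on conserved genes. The marker levels below therefore cannot be assigned to host or tumor cells. In bulk tumors, fewer cells of a type and less RNA per cell cannot be told apart. Of the 7 fibroblast markers 4 were tested, 2 with a higher and 2 with a lower mean log2 value in WCE tumors, and their summed level was 16.9 to 27.5 FPKM in Vehicle and 18.5 to 41.8 FPKM in WCE tumors. PDGFRA, at 3.97 to 11.0 FPKM with Vehicle and 4.02, 32.6 and 20.7 FPKM with WCE, made up most of the highest sums (log2 fold change 0.93, SE 0.67, adjusted p = 0.663). LUM had the opposite sign at 3.15, 1.94 and 0.599 FPKM with Vehicle and 0.671, 0.338 and 0.479 FPKM with WCE (log2 fold change -0.85, SE 0.32, adjusted p = 0.623). The defining markers DCN and THY1 did not exceed 0.161 and 0.0834 FPKM. Of the 8 pericyte and smooth muscle markers 5 were tested, with summed levels of 20.01 to 25.5 FPKM and 13.6 to 26.3 FPKM, and PDGFRB did not exceed 0.102 FPKM.

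Summed endothelial and myeloid markers were lowest in Vehicle replicate 1 and highest in WCE replicate 3, the tumors with the lowest and the highest COL6A1 and COL6A2. The 8 endothelial markers summed to 1.36 to 4.08 FPKM in Vehicle and 3.75 to 9.16 FPKM in WCE tumors, and the 3 tested (PECAM1, KDR and TIE1) all had a higher mean log2 value. EMCN was at 0 in every tumor, and CDH5 and VWF did not exceed 0.0769 and 0.0893 FPKM. The 6 myeloid markers summed to 25.7 to 41.3 FPKM and 40.3 to 44.7 FPKM, nearly all of it CD68, while PTPRC did not exceed 0.666 FPKM. The part of these cells in the collagen values was not tested.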

How the data were processed

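RNA of 6 PC-3 tumors had been sequenced from stranded mRNA libraries. The authors deposited FPKM values per gene entry. The submitters' processing notes name TopHat2 2.0.13, Cufflinks and the builds hg19 and mm10, without their roles, so how host reads were treated and whether strand was used in counting are not given in the sources used here. Each column was matched to its tumor by the sample label, and 0 columns were left without a sample.

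From these values log2(FPKM + 1) was computed, and the 13287 of 24000 entries with a mean of at least 0.5 FPKM entered a two-sided moderated test with a mean-variance trend (limma 3.58.1, R 4.3.3), with Benjamini-Hochberg adjustment over all of them and a threshold of 0.05. On simulated data only the estimated fold changes were held to a limit. That simulation drew the tumors independently, without a nearly identical pair, so it says nothing on the p-values of these data. FPKM are not counts, so no count test was run, and the depth is known only in relative terms. The p-values measure the spread between the labeled tumors. They treat these tumors as independent, which the near identity of Vehicle replicate 3 and WCE replicate 1 puts in doubt.

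The collagens and the lists of synthesis genes, receptors and markers were chosen with earlier results of these data known. All collagens were named, with the synthesis genes under an unadjusted p of 0.05 and P4HA1, P4HA2, PLOD2, SERPINH1 and LOX. MIA3, P3H2, CTAGE5, PDGFRA, LUM, the receptor genes with levels and COL28A1 were named beyond that rule. Alternatives were a pseudocount of 0.1, no filter, median-ratio and upper-quartile scaling, array weights, a replicate block, leaving out each tumor, and leaving out Vehicle replicate 3 with WCE replicate 1. Sequences were taken from RefSeq promoter windows (GRCh38.p14) and not converted between builds. Scripts used Python 3.11.15, numpy 2.4.6, pandas 2.3.3 and matplotlib 3.10.9.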

Additional observations from a re-analysis of the deposited data

How the results depend on the processing

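No collagen passed the adjusted limma test in any setting run, and its lowest adjusted p lay between 0.126 (array weights) and 0.964 (without WCE replicate 3). The count of collagens higher at an unadjusted p under 0.05 was 4, fell to 2 with no filter on low values and ran from 0 to 5 over the fits that left out a single tumor. The count lower was 0, 1 with array weights, 2 without Vehicle replicate 3 and WCE replicate 1, and 0 to 2 with a single tumor left out (2 without WCE replicate 1). For the synthesis genes the count was 2, against 4 with no filter, 9 with array weights, 4 with the replicate block, 9 without Vehicle replicate 3 and WCE replicate 1, and 0 to 6 with a single tumor left out (0 without Vehicle replicate 1 or either of WCE replicates 2 and 3, 4 where Vehicle replicate 3 and 6 where WCE replicate 1 was dropped). The number of all entries with an adjusted p under 0.05 was 1, 5 without Vehicle replicate 3 and WCE replicate 1, and 1 to 7 with a single tumor left out (2 without WCE replicate 2 and 7 without WCE replicate 1). The number of all entries under an unadjusted p of 0.05 was 944, 3201 with array weights, 2449 without Vehicle replicate 3 and WCE replicate 1, and 219 to 2033 with a single tumor left out. The median collagen log2 fold change was 0.07, -0.04 with array weights, and -0.05 to 0.19 with a single tumor left out. COL6A2, COL6A1, COL18A1, COL13A1, COL4A5, COL4A6 and COL9A2 stayed higher, and COL4A1, COL7A1 and COL21A1 lower, in every setting run. Array weights turned the direction of COL16A1 (-0.11), COL4A2 (-0.042), COL5A2 (0.063), COL6A3 (-0.12), COL8A1 (-0.21) and COL11A2 (-0.037). Leaving out a single tumor turned the direction of 14 collagens, with log2 fold changes of -0.17 to 0.21 for COL16A1, -0.12 to 0.32 for COL5A3, -0.11 to 0.12 for COL5A2, -0.070 to 0.38 for COL6A3, -0.23 to 0.21 for COL8A1, -0.0056 to 0.16 for COL11A2, -0.085 to 0.38 for COL5A1, -0.47 to 0.14 for COL2A1, -0.17 to 0.18 for COL4A2, -0.037 to 0.31 for COL27A1, -0.93 to 0.10 for COL17A1, -0.38 to 0.10 for COL12A1, -0.79 to 0.22 for COL1A1 and -0.97 to 0.11 for COL3A1. The causes were not tested. Deviations from the group mean had correlations of -0.24, 0.16 and -0.09 over tested entries for tumors with the same replicate number. For Vehicle replicate 3 with WCE replicate 1 the correlation was 0.36. Deviations from a mean of 3 tumors are tied to each other, so these values cannot exclude a pairing by number. The replicate block gave 3 collagens higher and 0 lower at an unadjusted limma p under 0.05. Depth limits the collagens under the filter, which the fit without a filter included.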
